A study of Mus musculus with 6 samples.

Results

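Mitophagy is the removal of mitochondria by autophagy, and 9 genes of its selective steps were examined in mouse muscle stem cells lacking or carrying OPA1. The genes were taken by a list of symbols, 9 of 49652 gene rows of the count files, and not by a cut on their values. Earlier results of these data were known when the list was made. They form a receptor arm of 5 genes (Bnip3, Bnip3l, Fundc1, Fkbp8 and Bcl2l13) and a PINK1-Parkin arm of 4 genes (Pink1, Optn, Sqstm1 and Nbr1). All 9 passed the filter on low counts, with 210 to 51135 reads per gene and library.

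The study asked what loss of OPA1, the GTPase that fuses the inner mitochondrial membrane, does to quiescent muscle stem cells. The KO group (n = 3 libraries) had the genotype OPA1-Pax7-CreERT2 and was Cre positive, Pax7-CreERT2 being a Cre recombinase made in Pax7-expressing muscle stem cells and switched on by tamoxifen. The WT group (n = 3 libraries) had the same genotype name but was Cre negative. Both groups were 8 to 10 weeks old, were given tamoxifen by gavage for 5 days, were not injured, and gave cells 3 days later. Cells came from hindlimb muscle by a sort for integrin alpha-7 and VCAM and against Sca1, CD45 and CD31. A Cre-positive control with intact Opa1 is not among the groups, so Cre and Opa1 loss cannot be told apart. The labels do not say how many animals made a library, so the p-values measure the spread between these libraries. In such bulk RNA, fewer cells expressing a gene and less of its RNA per cell cannot be told apart.

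Mitophagy runs along a pair of routes. In the receptor route, proteins anchored in the outer mitochondrial membrane bind LC3 and GABARAP proteins of the growing autophagosome directly through a short LC3-interacting motif. In the ubiquitin route, the kinase PINK1 builds up on damaged mitochondria and phosphorylates ubiquitin, ubiquitin chains grow on the outer membrane, and ubiquitin-binding adaptors such as optineurin and p62 then link the mitochondrion to LC3. Autophagy is known to be needed in mice to keep muscle stem cells quiescent.

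The promoter stretches below are shown because several transcription factors on the gene lists described further on bind short known motifs. RefSeq windows on GRCm38.p6, 250 bases before to 50 bases after an annotated start, were found for 8 of the 9 genes, with 2 windows for Nbr1 and none for Bnip3l. Each was searched on both strands for ACGTG (the core of the hypoxia response element bound by HIF), GTCACGTG (TFEB, which contains the HIF core), TGACNNNGC (NRF2) and GTAAACA (FOXO). ACGTG was found in 3 of the 9 member windows, those of Bnip3 and Fkbp8 and a single window of Nbr1, and in 19.6% of all 32851 windows. TGACNNNGC was found in the window of Bcl2l13 and in 12.4% of all windows. GTCACGTG and GTAAACA were found in 0 of the 9 member windows, and in 2.25% and 3.65% of all windows. A match is a description of the letters in the window and not evidence of binding. Capitals mark the matches, and each stretch reads 5′ to 3′ on the strand of its gene.
Bnip3 (chr7:138909582-138909641, minus strand, with the palindrome CACGTG matching on both strands 108 to 103 bases before the start): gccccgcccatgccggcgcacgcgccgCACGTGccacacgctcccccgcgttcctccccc
Fkbp8 (chr8:70527650-70527709, plus strand): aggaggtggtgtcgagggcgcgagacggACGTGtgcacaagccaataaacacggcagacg
Nbr1 (chr11:101551940-101551999, plus strand, the match lying on the other strand): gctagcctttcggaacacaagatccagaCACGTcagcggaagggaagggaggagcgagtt
Bcl2l13 (chr6:120836102-120836161, plus strand, with 2 matches): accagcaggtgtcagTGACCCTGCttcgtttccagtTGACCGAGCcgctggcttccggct

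Between 41410136 and 56606886 reads fell in genes in each library. Levels are given as CPM, counts scaled to the TMM library size. The targeted gene Opa1 was at 17.5, 34.4 and 27.1 CPM in KO replicates 1 to 3, against 68.2, 31.4 and 68.8 CPM in WT replicates 1 to 3. The value of WT replicate 2 thus goes against its label, since it falls among the KO values, and it is named below as the library labelled WT replicate 2. Opa1 had a log2 fold change of -1.09 (SE 0.37). Its p in edgeR's quasi-likelihood test was 0.0215 unadjusted and 0.99998 adjusted. An exact two-sided permutation test gave p = 0.2, the smallest p open to 3 libraries against 3 being 0.1. Reads from any exon were counted, including those that a deletion may leave. Pax7, the transcription factor that defines muscle stem cells, was at 325 to 453 CPM in KO and 252 to 398 CPM in WT. Of the sort markers, Vcam1 was at 1139 to 1407 CPM in KO and 1032 to 1387 CPM in WT. Itga7, which encodes integrin alpha-7, was at 215, 158 and 111 CPM in KO and 227, 90.8 and 121 CPM in WT. It was highest in KO replicate 1 and WT replicate 1. Of the 8 muscle stem cell markers tested, 3 had positive and 5 negative log2 fold changes, with a median of -0.08. Among them Calcr, a receptor known to keep muscle stem cells quiescent, was at 178, 165 and 228 CPM in KO, against 273, 229 and 349 CPM in WT. All its KO libraries lay below all WT libraries, as for 3.12% of all genes. Its log2 fold change was -0.58 (SE 0.20), with an unadjusted edgeR p of 0.0244 and an adjusted p of 0.99998. The 5 leukocyte markers tested summed to 6.41 to 16.7 CPM in KO and 6.38 to 15.7 CPM in WT. Of these Laptm5, at 0.663, 0.772 and 0.247 CPM in KO and 0, 0.0209 and 0 CPM in WT, had an unadjusted edgeR p of 0.0026 and an adjusted p of 0.99998. Tyrobp, at most 0.740 CPM, was also higher in every KO library than in any WT library, as were 3.43% of all genes. Ptprc was at 0 to 0.651 CPM in KO and 0 to 0.337 CPM in WT. The 2 markers with the highest levels overlapped between the groups. Cd68 was at 3.43 to 6.87 CPM in KO and 3.91 to 9.14 CPM in WT, and Lyz2 at 2.01 to 9.12 CPM in KO and 2.30 to 6.33 CPM in WT. The part of these marker differences in the levels of the mitophagy genes was not tested. Summed markers of mature fibres (8 of 8 tested) came to 164 to 408 CPM in KO and 148 to 547 CPM in WT, with none at 0. Smooth muscle and pericyte markers (5 of 5) summed to 804, 400 and 462 CPM in KO and 1081, 507 and 593 CPM in WT. This sum was highest in KO replicate 1 and WT replicate 1, and was mostly Acta2. Acta2 alone was at 740, 260 and 286 CPM in KO and 981, 313 and 504 CPM in WT. Tagln was also highest in both replicates 1. Rgs5 went the other way, at 39.4, 110 and 142 CPM in KO and 56.1, 144 and 65.6 CPM in WT. Myh11 and Cspg4 had their highest values in other libraries. Endothelial markers (6 of 6) summed to 89.1 to 143 CPM in KO and 104 to 153 CPM in WT, mostly from Tek. Their mean log2 CPM was less even, at 1.78, 2.68 and 3.49 in KO and 3.44, 3.43 and 0.334 in WT. Fibro-adipogenic markers (6 of 6) summed to 80.2 to 95.6 CPM in KO and 50.3 to 126 CPM in WT, mostly from Dcn. Their mean log2 CPM was 2.30, 0.739 and 2.85 in KO and 2.31, 0.653 and 2.78 in WT. The part of these cells was not tested.

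None of the 9 mitophagy genes differed between KO and WT beyond the spread between libraries, and their mean levels in KO lay close to those in WT. Log2 fold changes ran from -0.12 for Pink1 to 0.17 for Sqstm1, with a median of -0.06 over the 9 genes and 0.01 over all 18832 genes tested. Values were positive for 4 of the 9, against 51.0% of all genes. By edgeR's quasi-likelihood test 0 of 9 genes were called at an adjusted p under 0.05, as were 0% of all genes. At an unadjusted p under 0.05 the count was 0 of 9 against 2.09% of all genes (1.08% higher and 1.00% lower in KO), and the smallest unadjusted edgeR p of the 9 was 0.398. DESeq2 also called 0 of the 9, with 0.106% of all genes called, and limma voom called 0 of the 9 and 0% of all genes. The KO and WT libraries overlapped for each of the 9 genes, whereas they did not overlap for 6.55% of all genes, with KO above WT for 3.43% and below for 3.12%. A p above the threshold does not show that levels were the same, but the 95% intervals give a limit. With all 6 libraries, each of the 9 intervals lay within -1 and 1 on the log2 scale, or a 2-fold difference either way. Those of Fundc1, Fkbp8 and Nbr1 lay within -0.5 and 0.5. For Optn the SE was 0.32 in that fit and 0.35 to 0.39 when any 1 library was omitted. Intervals are not given for those smaller fits, so the 2-fold limit is not shown to hold there. Without the library labelled WT replicate 2 the fold changes ran from -0.20 for Fundc1 to 0.20 for Bnip3.

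**Figure D1:**
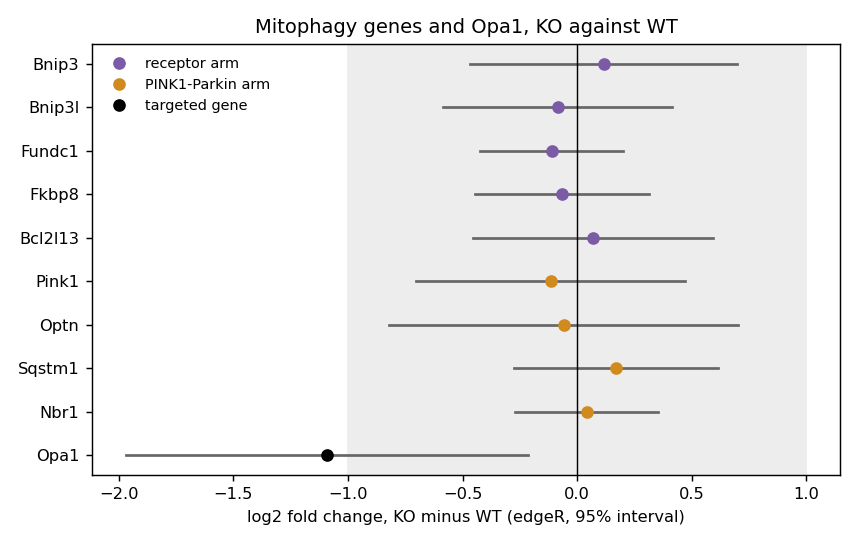
Log2 fold changes, KO minus WT, from edgeR for the 9 mitophagy genes and Opa1 (n = 3 libraries a group). Dots are estimates, lines are 95% intervals, and the shaded band marks -1 to 1. Each interval of a mitophagy gene spans 0 and stays inside the band, while that of Opa1 lies below 0.

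In the receptor arm, Bnip3 and its paralog Bnip3l (NIX) encode tail-anchored outer membrane proteins that recruit LC3. Bnip3 is known as a target of the hypoxia factor HIF1, and Bnip3l is required to clear mitochondria from maturing red cells. Bnip3 (ENSMUSG00000078566.8, chromosome 7 from 138890836 to 138909519, minus strand, GRCm38) was at 37.6, 54.6 and 51.1 CPM in KO replicates 1 to 3, against 31.2, 49.3 and 51.8 CPM in WT replicates 1 to 3. Replicate 1 was the lowest library of each genotype, and the other 4 libraries lay between 49.3 and 54.6 CPM. The means were 47.8 ± 8.99 CPM in KO and 44.1 ± 11.3 CPM in WT (SD, n = 3 each), with a log2 fold change of 0.11 (SE 0.25, 95% interval -0.47 to 0.70).

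Bnip3l (ENSMUSG00000022051.15, chromosome 14 from 66985239 to 67008877, minus strand) was at 186, 225 and 277 CPM in KO, against 190.2, 249 and 291 CPM in WT. Replicate 1 was again lowest and replicate 3 highest in each genotype, and the genotypes overlapped over nearly their whole range. Its log2 fold change of -0.09 had an SE of 0.21 and a 95% interval of -0.59 to 0.41. Globin and other red cell markers (5 of 6 tested) summed to 257, 33.0 and 214 CPM in KO and 422, 99.1 and 198 CPM in WT. They were highest in WT replicate 1 and KO replicate 1, the libraries lowest in Bnip3l. Next came KO replicate 3 and WT replicate 3, the libraries highest in Bnip3l. The part of red cells in the level of Bnip3l was not tested.

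Fundc1 encodes an outer membrane receptor whose binding to LC3 is switched on by dephosphorylation in hypoxia. It lies on the X chromosome (ENSMUSG00000025040.13, 17556564 to 17572325, minus strand) and was at 105, 99.8 and 98.3 CPM in KO, against 118, 94.9 and 114 CPM in WT. These values spanned the narrowest range of the 9 genes, the highest library standing at 1.25 times the lowest. KO stood at a log2 fold change of -0.11 (SE 0.13, 95% interval -0.42 to 0.20). The lowest value was in the library labelled WT replicate 2, which had the X-inactivation RNA Xist at 0.0209 CPM and the Y-linked Ddx3y at 226 CPM. The other 5 libraries had Xist at 244 to 508 CPM. Of these, KO replicates 2 and 3 and WT replicate 3 also held Ddx3y, at 22.9, 90.2 and 23.3 CPM, whereas KO replicate 1 had 0.141 CPM and WT replicate 1 had 0.0354 CPM. By these 2 RNAs, KO replicates 2 and 3 and WT replicate 3 held RNA of both sexes, so sex composition differed within each group. The part of sex in the Fundc1 values was not tested.

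Fkbp8 encodes a tail-anchored peptidyl-prolyl isomerase that binds BCL2 and recruits LC3A, and Bcl2l13 encodes a BCL2-like membrane protein that can take the place of the yeast mitophagy receptor Atg32. Fkbp8 (ENSMUSG00000019428.16, chromosome 8 from 70527724 to 70535328, plus strand) was at 81.2, 72.5 and 66.0 CPM in KO, against 89.8, 71.1 and 68.9 CPM in WT. Bcl2l13 (ENSMUSG00000009112.4, chromosome 6 from 120836212 to 120892842, plus strand) was at 50.3, 45.6 and 44.0 CPM in KO, against 59.3, 36.0 and 38.3 CPM in WT. For both genes replicate 1 was the highest library of each genotype, the reverse of Bnip3 and Bnip3l. Their log2 fold changes were -0.06 (SE 0.16) and 0.07 (SE 0.22).

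In the PINK1-Parkin arm, Pink1 encodes the kinase that marks damaged mitochondria. It had the widest spread of the 9 genes, the highest library standing at 1.84 times the lowest. Pink1 (ENSMUSG00000028756.12, chromosome 4 from 138313409 to 138326307, minus strand) was at 67.2, 97.4 and 90.1 CPM in KO, against 124, 80.9 and 71.1 CPM in WT. The lowest library was KO replicate 1 and the highest WT replicate 1, with the other 4 in between in both genotypes. The means were 84.9 ± 15.7 CPM in KO and 92.0 ± 28.2 CPM in WT (SD, n = 3 each), with a log2 fold change of -0.12 (SE 0.25, 95% interval -0.70 to 0.47). Without WT replicate 1 it was 0.16, and without KO replicate 1 it was 0.03.

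Sqstm1, which encodes the adaptor p62, binds ubiquitin chains and LC3, and also ties up KEAP1, the inhibitor of the transcription factor NRF2. Sqstm1 (ENSMUSG00000015837.15, chromosome 11 from 50199366 to 50210827, minus strand) was at 628, 933 and 901 CPM in KO, against 671, 691 and 827 CPM in WT. KO replicates 2 and 3 were the highest of the 6 libraries and KO replicate 1 the lowest, so the KO libraries lay on both sides of WT. KO stood at a log2 fold change of 0.17 (SE 0.19, 95% interval -0.28 to 0.61). It was 0.33 without KO replicate 1, where the unadjusted edgeR p was 0.0577 and the adjusted p 0.99984.

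Optn encodes optineurin, an adaptor of ubiquitin-coated mitochondria, and Nbr1 encodes a p62-related adaptor of aggregates and peroxisomes that also binds ubiquitin and LC3. Optn (ENSMUSG00000026672.11, chromosome 2 from 5020642 to 5064051, minus strand) was at 5.52, 5.18 and 3.70 CPM in KO, against 5.62, 4.84 and 4.54 CPM in WT. Per length it was the lowest of the 9 genes in every library and had the widest interval, from -0.82 to 0.70 around a log2 fold change of -0.06. Nbr1 (ENSMUSG00000017119.19, chromosome 11 from 101552149 to 101581951, plus strand) was at 157, 152 and 159.7 CPM in KO, against 149, 135 and 172 CPM in WT. The KO values of Nbr1 lay within the WT range, and its log2 fold change was 0.04 (SE 0.13, 95% interval -0.27 to 0.35).

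**Figure D2:**
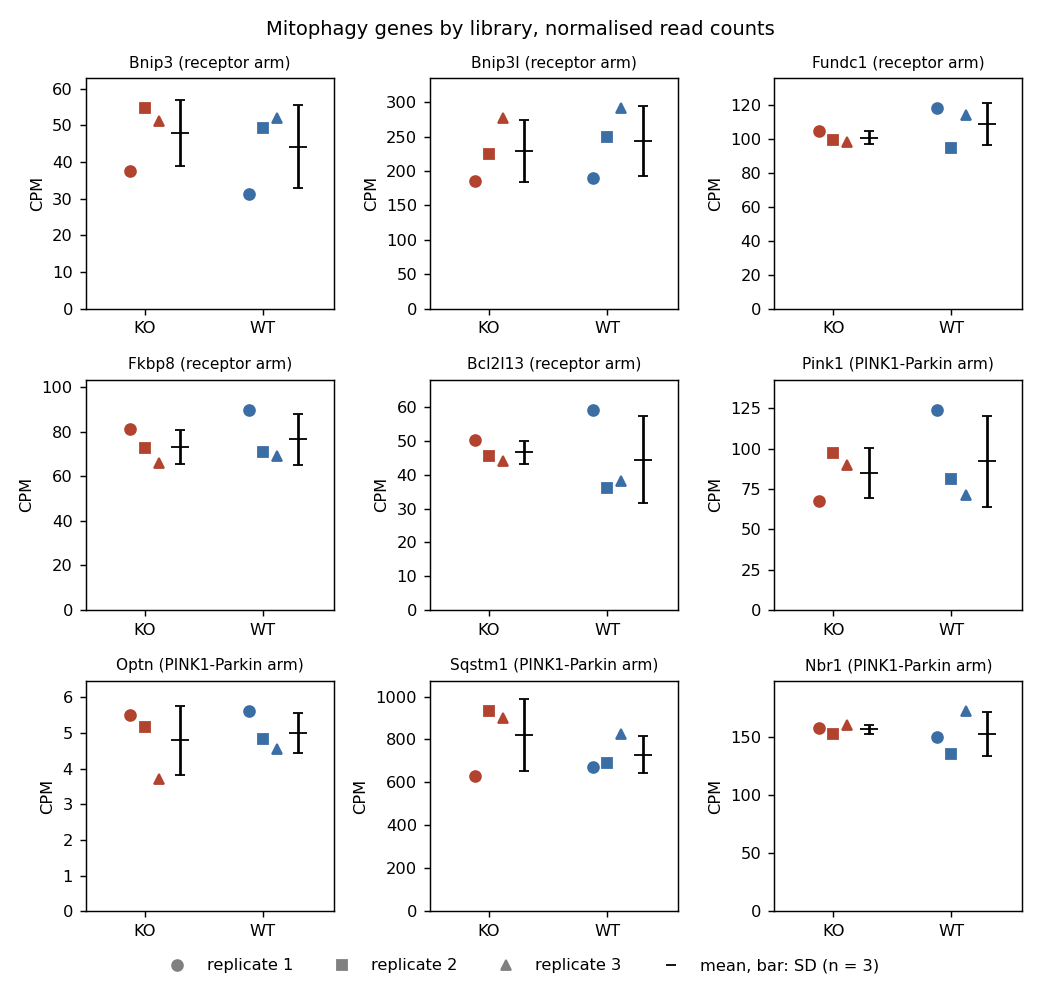
Normalised read counts (CPM, linear axes from 0) of the 9 mitophagy genes, KO left and WT right. Symbols are single libraries by replicate number, and the black marks are the mean and SD (n = 3). KO and WT overlap in each panel, and replicate 1 (circles) is the lowest library of each genotype for Bnip3, Bnip3l and Sqstm1.

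Set per length, as CPM per kilobase of exon, Sqstm1 was far above the other 8 genes. It stood at 244 ± 49.9 in KO and 217 ± 25.2 in WT (SD, n = 3 each), and made up 48.9% to 57.5% of the summed per-length level of the 9 genes. Bnip3l followed at 59.4 ± 11.8 in KO and 63.0 ± 13.1 in WT, then Fundc1 at 43.0 ± 1.53 in KO and 46.4 ± 5.30 in WT, and Pink1 at 31.8 ± 5.89 in KO and 34.4 ± 10.5 in WT. Nbr1, Bnip3 and Fkbp8 averaged 22.4, 20.3 and 16.5 over the 6 libraries, Bcl2l13 averaged 5.02 and Optn 1.31. With length taken as all annotated exons of a gene, Sqstm1 from Bnip3l, Pink1 from Nbr1, Fkbp8 from Bcl2l13 and Bcl2l13 from Optn were separate over all 6 libraries. The ranges of Bnip3l and Fundc1 overlapped, with Bnip3l the higher in 5 of 6 libraries, as did those of Fundc1 and Pink1, with Fundc1 the higher in 6 of 6. Nbr1 stood above Bnip3 in 4 of 6 libraries and Bnip3 above Fkbp8 in 4 of 6, so these neighbours could not be ordered. The order depends on the length used. The longest transcript had 1799 bases for Fkbp8, 4789 for Nbr1 and 2375 for Pink1, against 4529, 6871 and 2673 bases of all exons. A shorter length raises the per-length level, most of all for Fkbp8 among these 3 genes. The places of Fkbp8, Nbr1 and Pink1 are therefore not settled.

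**Figure D3:**
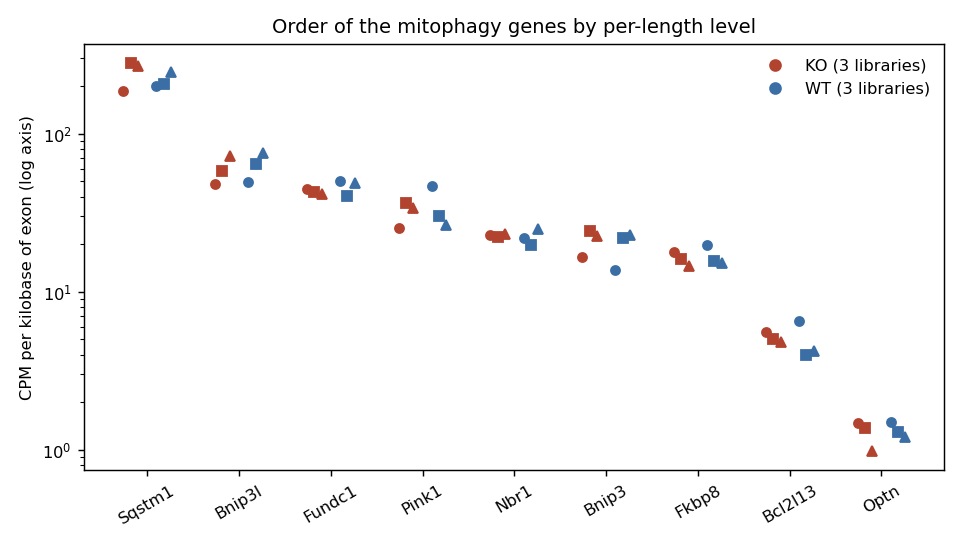
Per-length level (CPM per kilobase of exon, log axis) of the 9 mitophagy genes in order of their mean, with 3 KO libraries left and 3 WT libraries right for each gene. Sqstm1 averages 231 and Optn 1.31 over the 6 libraries, and KO and WT overlap at each gene.

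The receptor arm summed to 145 ± 11.3 CPM per kilobase in KO and 151 ± 13.8 in WT (SD, n = 3 each), and the PINK1-Parkin arm to 300.3 ± 55.4 in KO and 275 ± 21.6 in WT. The share of the receptor arm was 36.0%, 30.1% and 32.3% in KO replicates 1 to 3, against 34.1%, 36.3% and 35.7% in WT replicates 1 to 3. KO replicates 2 and 3 were thus the lowest, both with high Sqstm1, and KO replicate 1 lay inside the WT range. With the longest transcript as the length, KO replicate 1 was instead the highest library, at 38.1% against 36.6% to 37.9% in WT. Ratios between related genes within a library, which do not depend on the scaling, overlapped as well. The log2 ratio of Bnip3 to Bnip3l per length was -1.54, -1.27 and -1.67 in KO and -1.84, -1.57 and -1.72 in WT. Its difference was 0.22, with p = 0.2 in the exact two-sided permutation test and 0.6 after Benjamini-Hochberg adjustment over the 3 ratios tested. The differences were -0.23 for Optn to Sqstm1 and -0.11 for Nbr1 to Sqstm1, each with an exact permutation p of 0.7 (adjusted 0.7).

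**Figure D4:**
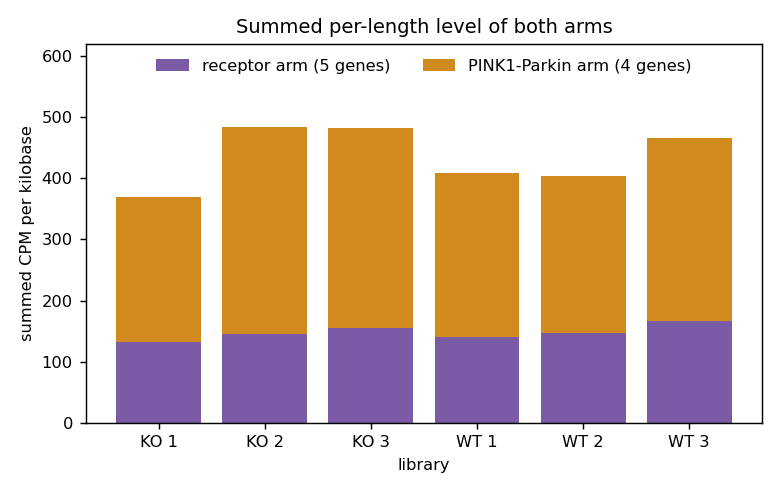
Summed per-length level (CPM per kilobase of exon) of the receptor arm (5 genes) and the PINK1-Parkin arm (4 genes) in each library, KO left and WT right, with bars from 0. The receptor arm runs from 133 to 166 and the PINK1-Parkin arm from 237 to 338, and the groups overlap in both.

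Partners of the 9 genes gave 0 calls as well. Over 7 lists, 74 genes were tested, 38 with positive and 36 with negative log2 fold changes and a median of 0.02. EdgeR called 0 of the 74 at an adjusted p under 0.05, as did DESeq2, and 1 had an unadjusted edgeR p under 0.05. For 2 of the 74 the groups did not overlap, against 6.55% of all genes.

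Among 9 ubiquitin ligases and deubiquitinases of mitochondria, 5 were positive and 4 negative with a median of 0.02. Usp8 and Usp15, deubiquitinases known to act in mitophagy, had the smallest p values of that list and stood at log2 fold changes of 0.14 each (SE 0.14 each). Usp30, the outer membrane deubiquitinase that opposes mitophagy, was at 9.62, 12.2 and 11.3 CPM in KO, against 6.49, 9.37 and 13.6 CPM in WT. Of 11 genes for the import and cleavage of PINK1, 4 were positive and 7 negative with a median of -0.08. They included Tomm20, a receptor of the outer membrane translocase, at -0.17 (SE 0.19), and Pmpcb, a subunit of the matrix processing peptidase, at -0.15 (SE 0.16). Parl, the inner membrane protease that cuts PINK1, was at 87.7, 86.8 and 86.8 CPM in KO, against 94.0, 86.1 and 101 CPM in WT.

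The 8 outer membrane proteins known to be ubiquitinated in mitophagy split into 5 positive and 3 negative values with a median of 0.04, led by Rhot2, a GTPase that ties mitochondria to microtubule motors, at 0.26 (SE 0.19), and the channel gene Vdac1 at 0.19 (SE 0.19). The 5 LC3 and GABARAP genes, whose products the receptors and adaptors bind, had 1 positive and 4 negative values with a median of -0.07. Map1lc3a was at -0.12 (SE 0.12) and Gabarapl2 at -0.14 (SE 0.15). Of 18 other adaptors, receptors and kinases, 11 were positive and 7 negative with a median of 0.06. Wdfy3, a large scaffold of selective autophagy, was at 0.28 (SE 0.17), and Tax1bp1, an adaptor related to optineurin in function, at -0.14 (SE 0.13). Calcoco2 had 0 counts in all 6 libraries and was not tested.

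Transcription factors known to act on mitophagy genes had 6 positive and 2 negative values with a median of 0.20, and none passed the test. Nfe2l2, which encodes NRF2, was at 202, 228 and 219 CPM in KO, against 187, 185 and 185 CPM in WT. All KO libraries lay above all WT libraries, as for 3.43% of all genes, at a log2 fold change of 0.22 (SE 0.11) with an unadjusted edgeR p of 0.0923 and an adjusted p of 0.99998. Hif1a was at 95.6 ± 20.9 CPM in KO and 77.5 ± 14.1 CPM in WT (SD, n = 3 each). Of 15 other genes known to respond to hypoxia, 6 were positive and 9 negative with a median of -0.02. Slc2a1, the basal glucose transporter, was the single gene of the 74 with an unadjusted edgeR p under 0.05 (0.0064, adjusted 0.99998, and 0.395 by DESeq2 after adjustment), at 29.6 ± 3.47 CPM in KO and 18.6 ± 1.16 CPM in WT. P4ha2, a collagen prolyl hydroxylase, had -0.48 (SE 0.30).

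Several of the 9 genes had their highest or lowest values in the same libraries of both genotypes. KO replicate 1 and WT replicate 1 were the 2 lowest of the 6 libraries for Bnip3, Bnip3l and Sqstm1, and the 2 highest for Fkbp8, Bcl2l13 and Optn. These are 3 and 3 of the 9 genes, against 12.4% and 14.2% of all genes tested, so the same libraries also stood at the ends for many other genes. Of the LC3 family, Map1lc3b had the same 2 libraries lowest, at 428, 692 and 765 CPM in KO, against 441, 618 and 922 CPM in WT, and so did Gabarapl1. Foxo3, a factor known to drive Bnip3 and Map1lc3b in mouse muscle, was at 85.8, 189.5 and 193 CPM in KO, against 83.0, 121 and 226 CPM in WT, and Foxo1 and Ulk1 also had both replicates 1 lowest. By contrast, 7 of the 11 genes for import and cleavage of PINK1 were highest there.

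The share of reads without a feature was also lowest in KO replicate 1 and WT replicate 1, at 11.6%, 15.5% and 17.0% in KO and 11.2%, 16.3% and 14.6% in WT. Summed cell cycle markers (5 of 5 tested, none at 0) were 333, 16.2 and 9.71 CPM in KO and 142, 6.83 and 152 CPM in WT, so that WT replicate 3 was high there too, while its Bnip3l and Foxo3 were the highest of the 6 libraries. The part of read composition or cell cycling in the levels of the 9 genes was not tested. The replicate numbers carry no stated meaning in the labels.

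**Figure D5:**
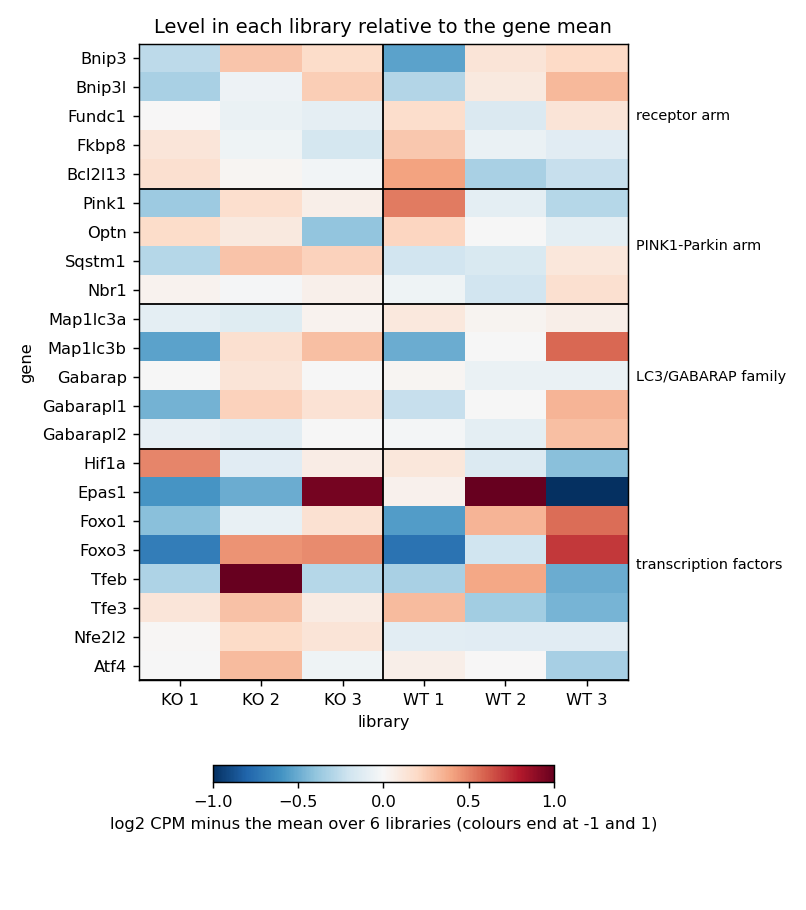
Level of each gene in each library (columns, KO left and WT right) as log2 CPM minus the mean of the gene over 6 libraries, for the 9 mitophagy genes, the LC3 and GABARAP family and the upstream transcription factors (rows). Red is above and blue below the mean of the gene. KO 1 and WT 1 are both blue for Bnip3, Bnip3l, Sqstm1, Map1lc3b, Gabarapl1, Foxo1 and Foxo3, and Pink1 is blue in KO 1 and red in WT 1.

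Likeness of patterns was measured as the root mean square difference between log2 CPM profiles over the 6 libraries, each centred on its own mean, among 8250 other genes whose mean log2 CPM was 4 or more. The 3 genes closest to Bnip3 were Gatad2b (0.05), Nmt2 (0.05) and Rock1 (0.05), all lowest in WT replicate 1. Among the 9 genes, Bnip3l (0.18) and Sqstm1 (0.19) were closest to Bnip3. The 3 genes closest to Pink1 were Evc2 (0.07), Apbb1 (0.08) and Tnfaip3 (0.10), and its closest match among the 9 was Bcl2l13 (0.25). Bnip3 and Pink1 themselves were 0.49 apart. Over the 9 genes the ratio of highest to lowest library had a median of 1.52, against 1.69 over the 11440 genes with a mean CPM of at least 4.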

How the data were processed

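The authors deposited raw read counts per gene for each library. On GRCm38, the submitters' processing notes name STAR 2.6.0c as well as HTSeq 0.6.1p2, Trim Galore 0.5.0, cutadapt 2.5, DESeq2 and edgeR. Neither the annotation release nor the strand setting of counting is stated in the labels. Exons of Bnip3, Fkbp8, Bcl2l13, Optn and Sqstm1 overlap those of genes on the opposite strand, so some of their reads may be lost or shared if counting ignored strand. Exons of Pink1 overlap 2 genes on its own strand, which strand cannot resolve. The 5 summary rows per file were left out. Symbols, positions and exon lengths came from GENCODE M21, also on GRCm38 (49399 of 49652 rows matched).

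The groups were tested with edgeR 4.0.16 in R 4.3.3, by quasi-likelihood (TMM scaling, robust estimation, filterByExpr, 18832 genes, Benjamini-Hochberg adjustment over all of them, threshold 0.05). The SE of a log2 fold change is its size over the root of the F statistic. Alternatives were DESeq2 1.42.0, limma 3.58.1 voom, DESeq2 size factors, no filter, a replicate block and each library left out. Exact permutation tests used scipy 1.17.1. With 210 or more reads for each of the 9 genes in every library, precision was set mainly by differences among libraries.

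The 9 genes, the lists and the motifs were chosen with earlier results of these data known. The rule names the 9 genes, Opa1, called genes of each list or else the 2 with the smallest p, and the 3 genes most like Pink1 and Bnip3. Usp30, Parl, Map1lc3b, Gabarapl1, Foxo1, Foxo3, Ulk1, Calcoco2, Xist, Ddx3y, the marker genes and the comparison of library extremes were added after values were seen. One gene of the ligase list is not reported here.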

Additional observations from a re-analysis of the deposited data

How the results depend on the processing

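None of the 9 genes was called under any of the 11 alternatives. All 45 values from other fits with 6 libraries (scaling, filter, tool and block, 5 for each gene) kept the direction given above. EdgeR called 0 genes in all under each alternative run with it, and limma voom called 0. DESeq2 called 20 (the cause was not tested). At an unadjusted p under 0.05, edgeR had 393 genes, 864 without the filter, and 324 to 818 with a library left out. With the replicate number as a block, edgeR gave 0 calls and 515 unadjusted p values under 0.05. The block changed the SE of the 9 genes. It fell from 0.21 to 0.097 for Bnip3l and from 0.25 to 0.14 for Bnip3. For Pink1 alone the SE rose, from 0.25 to 0.28. Correlations of deviations of same-numbered libraries were 0.24, 0.11 and -0.07, so the numbers were not taken to pair the libraries, and not every library correlated best with its own number.

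Leaving out 1 library turned the direction of 7 of the 9 genes, in 13 of 54 values. The lowest and highest log2 fold changes were -0.08 and 0.26 for Bnip3, -0.25 and 0.06 for Bnip3l, -0.15 and 0.07 for Fkbp8, -0.07 and 0.33 for Bcl2l13, -0.27 and 0.16 for Pink1, -0.17 and 0.10 for Optn, and -0.04 and 0.14 for Nbr1. Fundc1 (-0.20 to -0.05) and Sqstm1 (0.05 to 0.33) kept theirs, as did Opa1 (-1.38 to -0.87). The turned values were 0.044 for Bnip3l and 0.028 for Pink1 without KO replicate 1, and -0.0051 for Bnip3 without KO replicate 2. They were 0.0029 for Fkbp8 and 0.096 for Optn without KO replicate 3. Without WT replicate 1 they were -0.082 for Bnip3, 0.066 for Fkbp8, 0.16 for Pink1 and 0.033 for Optn. They were -0.066 for Bcl2l13 and -0.039 for Nbr1 without the library labelled WT replicate 2, and 0.062 for Bnip3l and -0.032 for Bcl2l13 without WT replicate 3. Differences in the log2 ratio ran from 0.10 to 0.30 for Bnip3 to Bnip3l, from -0.52 to 0.03 for Optn to Sqstm1 (0.027 without KO replicate 3) and from -0.29 to 0.02 for Nbr1 to Sqstm1 (0.018 without KO replicate 2). The difference in receptor share was -2.57 percentage points, from -4.16 to -1.24 with a library left out and -2.65 with the longest transcript.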
